A study of Homo sapiens with 12 samples.

Results

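The lysosome was followed in HCC1954, an established breast carcinoma line that carries an ERBB2 amplification, through 35 genes taken by name from the deposited count table, all of which were found among its 56269 rows. They code for membrane proteins (LAMP1, LAMP2, CD63, NPC1, MCOLN1), cathepsins and related peptidases (CTSA, CTSB, CTSD, CTSH, CTSL, CTSS, CTSZ), glycosidases (GAA, GLA, GLB1, GUSB, HEXA, NAGLU, NEU1), lipid and other hydrolases with their helper proteins (ASAH1, SMPD1, PSAP, GRN, LIPA, NPC2, TPP1, PPT1), the proton pump (ATP6AP1, ATP6V0D1, ATP6V1A, ATP6V1H), a cargo receptor (SQSTM1) and transcription factors (TFEB, TFE3, MITF). The labels describe 12 cultures of this line, 3 for each of 4 treatments: DMSO, the compound SNXB at 1 µM, lapatinib (a kinase inhibitor directed at ERBB2 and EGFR) at 1 µM, and a combination with no dose of its own in the labels, all for 24 hours. The labels call the repeats biological and name SNXB by its code alone. The 12 count columns carry alignment file numbers, S13 to S24, which match no label. No treatment was therefore given to any library, no treatment was compared with another, and the libraries below are 12 cultures of unknown treatment.

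Lysosomes are acidic compartments in which proteins, glycans, lipids and worn-out organelles are broken down. Their hydrolases work at the low pH that the vacuolar proton pump maintains, and the breakdown products leave through transporters in the membrane. Many lysosomal genes carry a short palindromic promoter element bound by TFEB, TFE3 and MITF, basic helix-loop-helix factors that the nutrient-sensing kinase MTOR restrains at the lysosome surface.

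The promoter element is shown because it is a feature that many lysosomal genes share in their sequence, whatever their level. Of the 35 genes, 26 had a promoter window in the RefSeq table (GRCh38.p14), from 250 bases before to 50 bases after each annotated start. CTSB, CTSS, LAMP2, HEXA, NAGLU, ASAH1, PSAP, ATP6V1A and ATP6V1H had none. The motif TCACGTGA, which reads the same on both strands, was found in 5 of the 26 genes (19.2%) and in 321 of all 27305 gene symbols in the table (1.18%). The genes with a match were LAMP1, ATP6V0D1, GAA, MCOLN1 and CTSA. The table held 35116 windows, so some symbols had more than 1 start. The counted row of CTSA begins at 45890144, upstream of the whole stretch shown here. Those of GAA (from 80101556) and ATP6V0D1 (minus strand, from 67481237) overlap their stretches in part. Below are the 100 bases just upstream of 1 RefSeq start of each of the 5 genes. They are written 5′ to 3′ on the gene's strand, with the matches in capitals.
LAMP1, chr13:113297139-113297238, plus strand: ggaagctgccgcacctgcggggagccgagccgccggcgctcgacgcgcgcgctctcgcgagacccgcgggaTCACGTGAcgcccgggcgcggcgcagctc
GAA, chr17:80101481-80101580, plus strand: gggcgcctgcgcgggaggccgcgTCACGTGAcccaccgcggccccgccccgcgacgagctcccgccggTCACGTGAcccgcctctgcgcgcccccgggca
MCOLN1, chr19:7522524-7522623, plus strand: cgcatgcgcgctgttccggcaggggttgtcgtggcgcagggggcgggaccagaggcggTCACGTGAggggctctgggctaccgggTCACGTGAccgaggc
CTSA, chr20:45891235-45891334, plus strand: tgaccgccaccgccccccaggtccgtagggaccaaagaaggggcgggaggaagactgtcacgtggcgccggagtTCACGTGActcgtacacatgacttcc
ATP6V0D1, chr16:67481158-67481257, minus strand: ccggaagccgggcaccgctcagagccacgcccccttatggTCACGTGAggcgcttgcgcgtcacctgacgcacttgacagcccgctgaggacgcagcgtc

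GAA and MCOLN1 each held 2 copies within the printed stretch. LAMP1 also held 2, of which the second begins 2 bases before the start and runs across it, so that it is not capitalised above. CTSA and ATP6V0D1 held 1 copy each, beginning 26 and 60 bases before the start. With the 6-base core CACGTG alone, which lies inside the longer motif, CD63, CTSD and NEU1 were added, giving 8 of 26 genes (30.8%) beside 8.77% of all genes. Extended by a G before and a C after the 8 bases, the motif was left in GAA and MCOLN1 (7.69%, beside 0.42% of all genes). A match describes the letters of the window and nothing more.

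The libraries held between 9289353 and 12219397 counted fragments. All 35 genes had a median of at least 1 CPM (fragments of the gene per 1000000 counted) over the 12 libraries, as did 14137 rows in all, and together they took between 0.421% and 0.645% of the counts. ERBB2, the amplified gene of the line, stood at 3869 to 9322 CPM, and the 6 epithelial and ERBB2 amplicon markers were all measured. Of 5 blood and macrophage markers, LYZ and CD163 had no count in any library, PTPRC and CD14 had at most 7 fragments, and CSF1R reached 2.87 CPM; 3 of 4 fibroblast markers had at most 3 fragments, COL1A1 reaching 14.7 CPM. The 3 endothelial markers PECAM1, CDH5 and VWF were all measured, with summed levels of 47.3 to 142 CPM, and their part in the results was not tested. Rows of the mitochondrial genome had no count in any library. Libraries S21 to S24 stood apart from the other 8: their effective sizes by the trimmed mean of M-values (TMM) were 0.90 to 0.96 times their totals, and the median gene lay 0.10 lower on the log2 scale in S21. Correlations are given with and without these 4 libraries.

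Levels between genes were compared per length, as CPM per kilobase of annotated exon, written FPKM below. PSAP, which encodes the precursor of the saposins that help sphingolipid hydrolases, had the highest median of the 35, 191 FPKM (range over libraries 135 to 296) and rank 137 of 14137. CTSZ, a cysteine carboxypeptidase, followed with 139 FPKM, and then CD63, a tetraspanin of late endosomes, and PPT1, the thioesterase that removes palmitate from proteins, each with 104 FPKM. The ranges of CTSZ (123 to 174), CD63 (89.8 to 151) and PPT1 (71.8 to 165) overlapped, but within libraries CTSZ was above CD63 in 12 of 12 and above PPT1 in 9 of 12. PSAP was above CTSZ in 10 of 12 libraries, and CD63 was above PPT1 in 8 of 12. GRN (progranulin) had 86.3 FPKM, and LAMP2, CTSD, NPC2, LAMP1 and CTSH lay between 42.3 and 55.2 FPKM. In total 30 of the 35 genes were above the median of all measured rows. Below it were MCOLN1 (4.53 FPKM), SMPD1 (4.22), HEXA (1.52), MITF (2.04) and TFEB (0.25), the last at the 2.12 percentile.

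**Figure D1:**
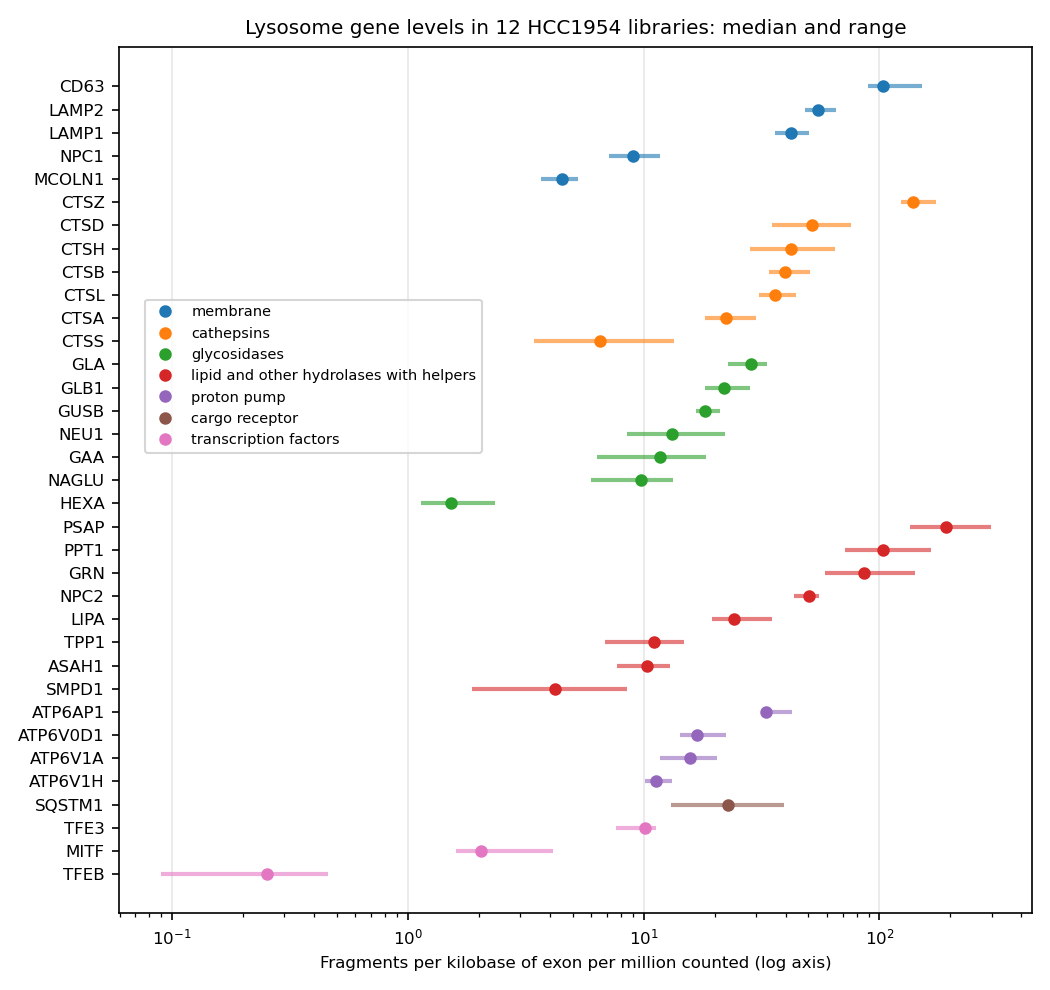
Levels of the 35 genes as CPM per kilobase of exon (FPKM, log axis), grouped by role. Points are medians over 12 libraries and lines run from the lowest to the highest library. PSAP is highest at 191 and TFEB lowest at 0.25.

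Exon annotation limits some of these levels. Of the 35 genes, 21 shared no exonic base with another row, and 6 shared at least 10%: CTSD (52.7%), CTSA (28.5%, mainly opposite NEURL2), SQSTM1 (22%, mainly opposite C5orf45), HEXA (16.3%), NAGLU (12.6%) and GLB1 (10.0%). With the whole count divided by the unshared length alone, the level of CTSD was 109 FPKM in place of 51.7. That of CTSA was 31.2 in place of 22.3 and that of SQSTM1 29.2 in place of 22.8. These values hold only if every counted fragment lay in unshared bases, which was not examined. The counting command sets no option for fragments that overlap several genes. On GRCh38, PSAP lies on chromosome 10 from 71816298 to 71851375, SMPD1 on chromosome 11 from 6390431 to 6394998, CTSS on chromosome 1 from 150730196 to 150765957, and TFEB on chromosome 6 from 41683978 to 41736259. None of these 4 shares an exonic base with another row.

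The 3 transcription factors of the family differed widely. TFE3 was the highest, at 10.1 FPKM (7.66 to 11.3), MITF followed at 2.04 FPKM (1.61 to 4.15), and TFEB was at 0.25 FPKM (0.09 to 0.46). The ranges of the 3 genes did not overlap. TFEC, the remaining factor of the family, had at most 1 fragment per library. TFEB rested on 6 to 30 fragments: 0.51 CPM in S13, 0.82 in S17, 1.24 in S18 and in S21, 1.36 in S22, 1.37 in S24, 1.5 in S15, 1.77 in S14, 1.79 in S19, 2.37 in S16, 2.48 in S20 and 2.60 in S23. The exact Poisson 95% intervals of the lowest library (0.19 to 1.10 CPM) and of the highest (1.76 to 3.71) did not overlap. The same held for each of the 35 genes. Such intervals cover counting error only, and the 2 libraries were picked as the lowest and highest of the 12. The highest TFEB level was 5.14 times the lowest, and 3.19 times without S13. MITF was at 29.9 CPM in S21, 20.6 in S23 and between 11.6 and 18.5 in the other 10 libraries. S21 stood alone at the top, and without S21 to S24 the highest MITF level was 1.52 times the lowest in place of 2.58 times. TFE3 stayed between 32.8 CPM in S22 and 48.2 in S19 with a median of 43.2, a range of 1.47-fold.

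The spread over libraries was described by the highest over the lowest CPM of the 12. It reached 1.5-fold in 23 of the 35 genes (65.7%), beside 78.5% of all 14137 measured rows, and 2-fold in 15 (42.9%), beside 47.9%. Among genes with a median of at least 10 CPM, where counting error is smaller, 22 of 34 (64.7%) reached 1.5-fold beside 68.7% of 9557 rows, and 14 of 34 (41.2%) reached 2-fold beside 29.5%. The shares at 1.5-fold are thus close to or below the background. The median fold range was 1.68 for the 35 genes and 1.94 for all measured rows, and 1.68 for both among those with a median of at least 10 CPM. Without libraries S21 to S24, 7 genes reached 2-fold in place of 15, beside 31.7% of measured rows, and CD63 (1.34-fold), NPC1 (1.39-fold), GLB1 and NAGLU (1.44-fold each) fell below the 1.5-fold limit. In RNA from whole cultures, a change in the RNA per cell and a change in the mix of cells cannot be told apart.

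Of the 5 membrane proteins, 2 ranged at least 1.5-fold and none 2-fold, beside 78.5% and 47.9% of all measured rows. Among rows with a median of at least 10 CPM these shares were 68.7% and 29.5%, also for the groups below. LAMP1 and LAMP2, major glycoproteins of the lysosomal membrane, ranged 1.38-fold and 1.35-fold. LAMP2 was at 363 CPM in S23, 357 in S19, 323 in S15 and 268 to 310 CPM in the other 9 libraries. LAMP1 was at 208 CPM in S17, 217 in S18, 221 in S21, 228 in S22, 235 in S13, 241 in S14, 245 in S24, 261 in S20, 262 in S23, 270 in S15 and in S19, and 288 in S16. These values rise in small steps with no gap that sets a library apart. CD63 ranged 1.68-fold, with S21 alone at 398 CPM and the other 11 libraries between 237 and 317. NPC1, which exports cholesterol from the lysosome, ranged from 71.9 CPM in S21 to 118 in S13. MCOLN1, a cation channel of the lysosomal membrane, stayed between 14.6 and 20.9 CPM.

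Of the 7 cathepsins and related peptidases, 4 ranged at least 1.5-fold and 3 at least 2-fold, beside 78.5% and 47.9% of all measured rows. CTSS, a cysteine protease best known from antigen-presenting cells, had the widest range of the group, 3.91-fold. It was at 57.0 CPM in S15, 48.2 in S23, 46.9 in S16, 45.3 in S19 and 39.7 in S24, at 28.1 in S20 and 27.3 in S13, and at 14.6 to 20.3 in S14, S17, S18, S21 and S22. The 5 highest and the 5 lowest libraries were separated by S13 and S20. CTSH, an aminopeptidase, ranged 2.28-fold, from 167 CPM in S21 and 174 in S22 to 362 in S20 and 381 in S16. CTSD, the main aspartic protease of the lysosome, ranged 2.18-fold, from 109 CPM in S21 to 238 in S19, and 52.7% of its exonic bases are shared with other rows. CTSA, a serine carboxypeptidase that stabilises GLB1 and NEU1 in a complex, ranged 1.64-fold, from 107 to 176 CPM. CTSB, a cysteine protease, ranged 1.48-fold around a median of 296 CPM, from 254 in S18 to 376 in S23. The range was 1.42-fold for CTSL and 1.41-fold for CTSZ.

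Of the 7 glycosidases, 5 ranged at least 1.5-fold and 4 at least 2-fold, beside 78.5% and 47.9% of all measured rows. GAA, which degrades glycogen, ranged 2.89-fold over the 12 libraries and 1.65-fold without S21 to S24. It was at 32.9 CPM in S21 and 39.7 in S22, at 53.6 to 68.5 in S13, S14, S17, S18, S23 and S24, at 79.5 in S15 and at 92.6 to 95.1 in S16, S19 and S20. NEU1, the lysosomal sialidase, ranged 2.60-fold, from 41.2 CPM in S14 to 107 in S19, also without S21 to S24. With TMM scaling NEU1 ranged 2.53-fold and GAA 2.48-fold. NAGLU, which acts on heparan sulfate, ranged 2.24-fold with its lowest values, 18 and 18.4 CPM, in S22 and S21, and 1.44-fold without S21 to S24. HEXA, the alpha subunit of beta-hexosaminidase, ranged 2.05-fold, from 14.4 to 29.5 CPM. GLB1 (beta-galactosidase) ranged 1.55-fold around a median of 95.5 CPM, from 80.0 in S21 to 124 in S20. The range was 1.45-fold for GLA (alpha-galactosidase) and 1.27-fold for GUSB (beta-glucuronidase).

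Of the 8 lipid and other hydrolases with their helpers, 7 ranged at least 1.5-fold and 5 at least 2-fold. The shares of all measured rows were 78.5% and 47.9%. SMPD1, acid sphingomyelinase, ranged 4.51-fold. It was at 23.3 CPM in S19, 19 in S15 and in S23, 16.2 in S17, 13.8 in S21 and 12.2 in S13, and at 11 in S16, 8.61 in S20, 8.12 in S14, 8.01 in S24, 7.51 in S22 and 5.17 in S18. The Poisson intervals of the lowest library (3.84 to 6.82 CPM) and the highest (20.6 to 26.3) did not overlap, as in all 35 genes. LIPA, the acid lipase that frees cholesterol from its esters, ran opposite to SMPD1, with Pearson r of -0.82 over the 12 libraries (on log2(CPM + 1)). LIPA was at 172 CPM in S22, 149 in S14, 140 in S18, 139 in S16, 138 in S24, 119 in S20 and 118 in S21, and at 96.3 to 109 in S13, S15, S17, S19 and S23. S19 was the highest library for SMPD1 and the lowest for LIPA. NPC2, the soluble partner of NPC1, ranged 1.28-fold, from 120 to 153 CPM.

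PSAP was at 960 CPM in S15, 880 in S19, 878 in S16, 749 in S23 and 719 in S20, at 617 in S13 and 618 in S24, and at 437 to 578 in S14, S17, S18, S21 and S22. The same 5 libraries as for CTSS were lowest. GRN ranged 2.39-fold, from 217 CPM in S21 to 518 in S19, and PPT1 2.30-fold, from 237 in S22 to 545 in S19. TPP1, a tripeptidyl peptidase, ranged 2.16-fold, from 33.7 CPM in S21 to 72.9 in S19. ASAH1, acid ceramidase, ranged 1.68-fold: it was at 181 to 200 CPM in S15, S16, S19, S20, S23 and S24 and at 119 to 137 in the other 6 libraries, with no library in between.

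Of the 4 proton pump subunits, 2 ranged at least 1.5-fold and none 2-fold, beside 78.5% and 47.9% of all measured rows. ATP6V1A, the catalytic subunit, was at 105 CPM in S15, 102 in S19, 100 in S13 and in S17, 89.9 in S18, 79.3 to 82.4 in S14, S21, S22 and S23, and 60.3 to 68.9 in S16, S20 and S24. ATP6V0D1, a subunit of the membrane part, ranged 1.57-fold, from 117 CPM in S14 to 184 in S19, and 1.43-fold without S19. The accessory subunit ATP6AP1, the most abundant of the 4 per length with 33.2 FPKM, ranged 1.36-fold, from 153 CPM in S14 to 208 in S19 with a median of 162, and ATP6V1H 1.31-fold. SQSTM1, which binds ubiquitinated cargo for autophagy and is itself degraded in the lysosome, ranged 3.02-fold. It was at 302 CPM in S19, 266 in S15, 231 in S17, 203 in S13, 185 in S23, 182 in S20, 166 in S16, 150 in S21, 147 in S18, 133 in S14, 117 in S24 and 100 in S22. No gap divides these values.

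**Figure D2:**
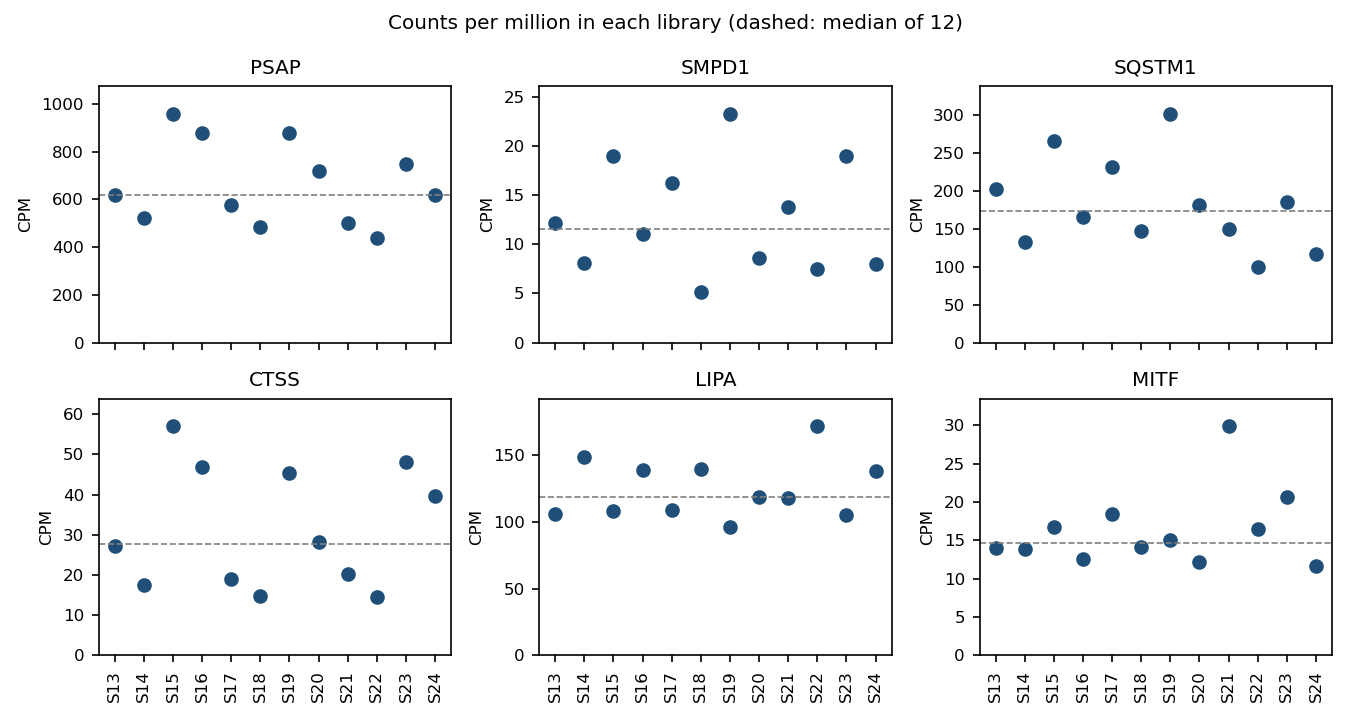
CPM of PSAP, SMPD1, SQSTM1, CTSS, LIPA and MITF in each of the 12 libraries, each on an axis from 0. The dashed line is the median of the 12. SMPD1 runs from 5.17 in S18 to 23.3 in S19, where LIPA is at its lowest, 96.3, and MITF stands at 29.9 in S21.

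The genes moved together in part. In each library, the log2 CPM of each gene was set against that gene's own median over the 12 libraries. In S19, 33 of the 35 genes (94.3%) lay above their own median, and the median deviation was 0.34, beside 56.6% and 0.04 for all measured rows. In S15 it was 29 genes (82.9%, beside 54.7% of all measured rows) with a median deviation of 0.29. In S16 and S20 it was 26 genes each (74.3%, beside 54.2% and 58.7%), with 0.22 and 0.07. At the other end, 6 of the 35 genes lay above their own median in S22 (median deviation -0.18), beside 39.9% of all measured rows. In S14 it was 7 of the 35 (-0.09), beside 55.1% of all measured rows. S19 was the highest library of 15 genes and S15 of 6, while S21 was the lowest library of 8 genes and S22 of 7. These counts of highest and lowest libraries were not made over all measured rows, so whether they set the 35 genes apart was not tested. All measured rows were also low in S21 and S22, with median deviations of -0.10 and -0.09. Only 38.6% and 39.9% of them lay above their own median there. Relative to the median of all rows in the same library, the 35 genes stood at 0.30 in S19, 0.26 in S15, 0.20 in S16, 0.15 in S23, -0.15 in S18, -0.11 in S14 and -0.08 in S22, and between -0.04 and 0.03 in the other 5 libraries.

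**Figure D3:**
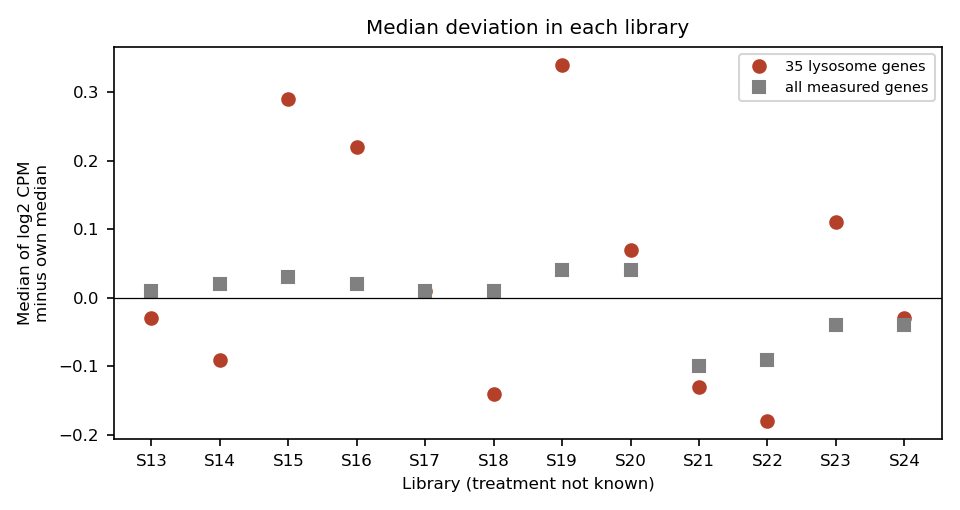
Median over the 35 genes (circles) and over all measured rows (squares) of log2 CPM minus the gene's own median, in each library. The 35 genes reach 0.34 in S19 and 0.29 in S15 and are lowest, at -0.18, in S22, while all rows stay between -0.10 and 0.04.

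**Figure D4:**
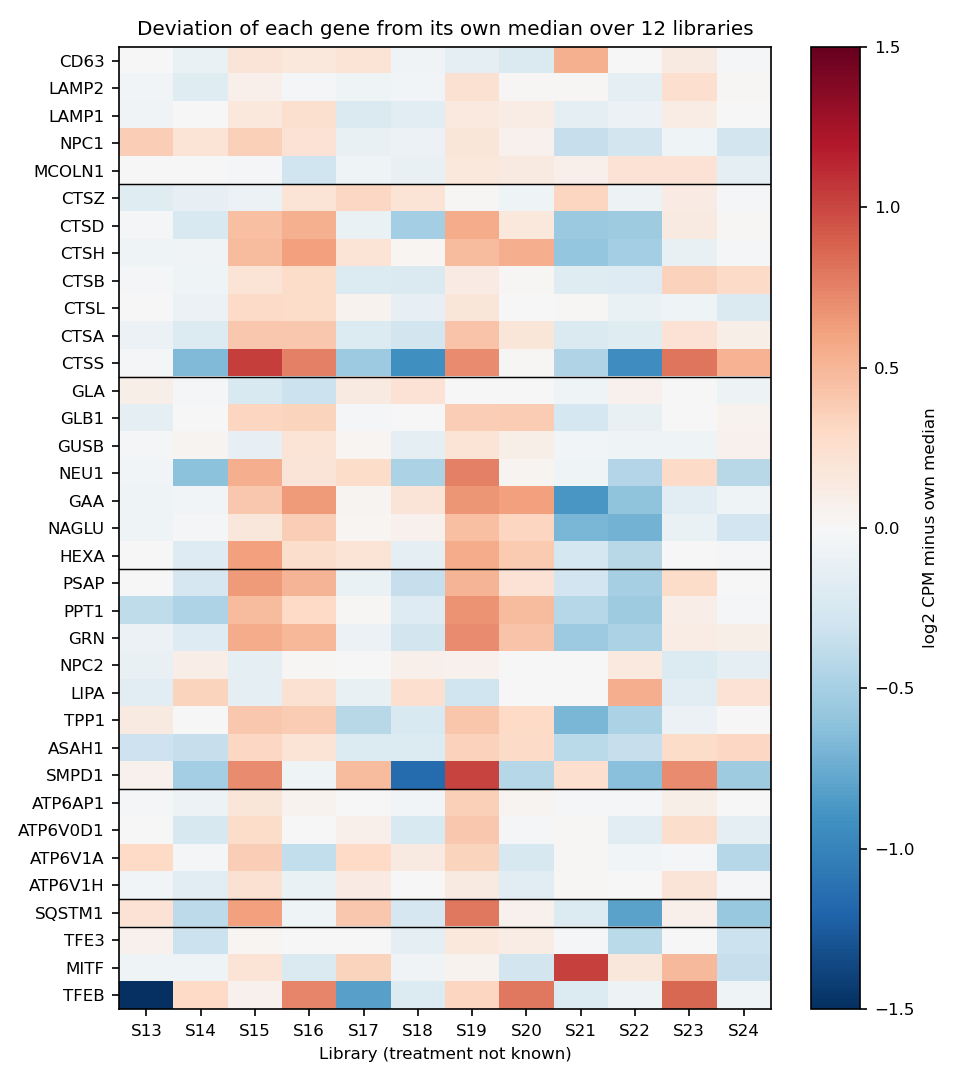
Deviation of log2 CPM from each gene's own median (colour) for the 35 genes in 12 libraries, grouped by role. Most rows are red in S15 and S19, CTSS reaching 1.04 in S15 and SQSTM1 0.79 in S19, while LIPA is highest in S22 (0.54) and MITF in S21 (1.03).

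Over the 595 pairs of the 35 genes, the median Pearson r of log2(CPM + 1) over the 12 libraries was 0.39, beside 0.03 for all 99920316 pairs of measured rows. In 83 pairs (13.9%) r was at least 0.8, beside 3.67% of all pairs, and in 5 (0.840%) it was -0.8 or lower, beside 2.35%. With TMM scaling the median was 0.28 and 51 pairs (8.57%) reached 0.8, beside 3.55%, and without libraries S21 to S24 these values were 0.42 and 112 pairs (18.8%), beside 3.97%. Pairs at -0.8 or lower numbered 1 with TMM (0.168%, beside 3.11%), 1 with DESeq2 scaling (beside 3.09%) and 9 without S21 to S24 (1.51%, beside 3.79%). The pairs share genes and libraries, and the libraries may differ in treatment, so these values describe the libraries and carry no test. PSAP had a median r of 0.74 to the other 34 genes, HEXA 0.71, CTSD and PPT1 0.68 each, CTSA 0.67 and GRN 0.66. Without S21 to S24 these medians were between 0.70 for PPT1 and 0.81 for GRN, and with TMM scaling between 0.46 for GRN and 0.63 for PSAP. PSAP and GRN each had r of 0.97 with CTSD, and 0.97 and 0.95 without S21 to S24.

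Other genes ran apart from this set. LIPA had a negative r with 31 of the other 34 genes (median -0.44), lowest with SQSTM1 (-0.89), TFE3 (-0.86), ATP6V0D1 (-0.84), SMPD1 and NEU1 (-0.82 each). Without S21 to S24 these 5 values were -0.94, -0.81, -0.86, -0.82 and -0.81. With TMM scaling SQSTM1 was at -0.94 and the other 4 lay between -0.56 and -0.75, above -0.8, and LIPA had a negative r with 25 of 34 genes. GLA had a median r of -0.33 and NPC2 of -0.27, and the other negative medians were those of MITF (-0.18), CD63 (-0.15), CTSZ (-0.09) and MCOLN1 (-0.08). Without S21 to S24, GLA was at -0.49, NPC2 at -0.32, CD63 at 0.06 and MCOLN1 at 0.10, and with TMM scaling MITF (0.03), CD63 (0.13), CTSZ (0.01) and MCOLN1 (0.10) were above 0. MITF and CD63 followed each other with r of 0.82, both highest in S21, and r was 0.59 without S21 to S24. NEU1, SMPD1 and ATP6V0D1 were close to each other, with r of 0.96 between NEU1 and ATP6V0D1, 0.95 between SMPD1 and ATP6V0D1 and 0.90 between NEU1 and SMPD1 (0.97, 0.94 and 0.91 without S21 to S24). GAA, CTSH and NAGLU formed a further close trio, in which GAA had r of 0.97 with each of the others and CTSH and NAGLU 0.95 with each other. Without S21 to S24, r was 0.93 for GAA with CTSH, 0.98 for GAA with NAGLU and 0.90 for CTSH with NAGLU.

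**Figure D5:**
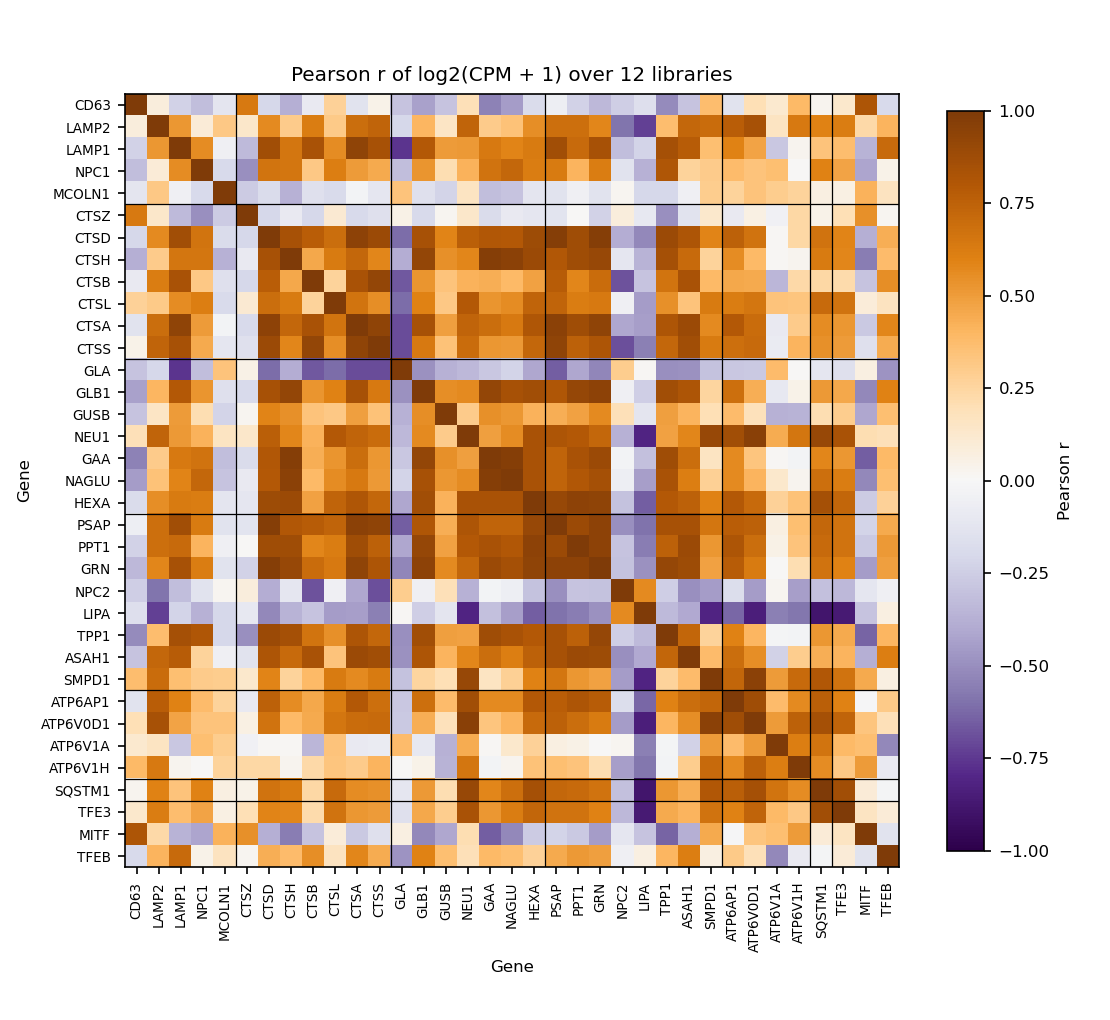
Pearson r of log2(CPM + 1) over 12 libraries between each pair of the 35 genes, ordered by role. Orange blocks join PSAP, GRN, CTSD, CTSA and HEXA; the row of LIPA is purple against most genes and reaches -0.89 with SQSTM1.

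Of 12 pairs chosen for known relations between their products, 4 passed a two-sided permutation test of r (100000 permutations, Benjamini-Hochberg adjusted over the 12). GRN and PSAP, whose products travel to the lysosome together, had r of 0.94 (adjusted permutation p = 0.00036) and Spearman's rho of 0.96 (adjusted p = 0.00024). Without the 2 libraries farthest from the median of GRN, r was 0.92. For each pair these 2 libraries were chosen anew, on the gene named first alone. HEXA and GLB1 had r of 0.86 (adjusted permutation p = 0.0029), rho of 0.76 (0.022) and r of 0.79 without 2 libraries. CTSB and CTSD had r of 0.77 (adjusted permutation p = 0.018), rho of 0.73 (0.026) and r of 0.92 without 2 libraries. TFEB and LAMP1 had r of 0.71 (adjusted permutation p = 0.029), rho of 0.78 (0.022) and r of 0.83 without 2 libraries, on the few fragments of TFEB given above. The unadjusted p of r was 3.0e-05, 0.00049, 0.0044 and 0.0098 in that order. Over the 8 libraries without S21 to S24, r was 0.96, 0.82, 0.91 and 0.71, and the adjusted p of HEXA and GLB1 (0.066) and of TFEB and LAMP1 (0.084) no longer passed. With TMM scaling r was 0.92, 0.76, 0.63 and 0.72, and CTSB and CTSD no longer passed (adjusted p = 0.086). The permutations take the 12 cultures as exchangeable, although the labels give them 4 treatments. The share of all pairs of measured rows that would pass the same test was not computed. Of all those pairs, 3.67% had r of at least 0.8 and 2.35% had r of -0.8 or lower. Whether the 4 pairs are set apart from pairs of other genes was not tested.

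The other 8 pairs did not pass. TFE3 and GRN had r of 0.60 (adjusted permutation p = 0.087) and rho of 0.72, whose adjusted p was 0.026, with r of 0.43 without 2 libraries. With TMM scaling their r was 0.34 (adjusted permutation p = 0.47). ATP6V1A and ATP6V1H, subunits of the same part of the pump, had r of 0.61 (adjusted permutation p = 0.087). For CTSB and CTSL r was 0.26 over 12 libraries (adjusted permutation p = 0.48) and 0.86 over the 8 without S21 to S24 (adjusted p = 0.035). TFE3 and LAMP1 (0.37), MITF and LAMP1 (-0.36), SQSTM1 and LAMP1 (0.34), TFEB and MCOLN1 (0.17) and NPC1 and NPC2 (-0.14) had adjusted permutation p of 0.37 to 0.65. With TMM scaling their r was 0.19, 0.01, 0.00, 0.19 and -0.52 in that order.

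Related genes outside the 35 were taken from lists of the same pathways. Of 33 other hydrolases and lysosomal membrane proteins, 32 were measured. Of these, 30 (93.8%) ranged at least 1.5-fold, beside 78.5% of all measured rows, and 16 (50%) at least 2-fold, beside 47.9%. Among rows with a median of at least 10 CPM these shares were 68.7% and 29.5%, and the lists here and below were not divided by level. LAPTM4B (799 CPM) and CTSC (368 CPM) had the highest medians and CLN3 the lowest (0.48 CPM, with 30.9% of its exonic bases shared). Wide ranges were those of IDUA (10.0-fold, 1.81 to 18.1 CPM), CTSK (6.76-fold), CTSO (6.29-fold), CTSF (5.0-fold) and ARSA (4.44-fold). GALC, GALNS, CTSV, IDS, DNASE2, MANBA, PLA2G15, SGSH and LGMN ranged between 2.02-fold and 3.66-fold.

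Of 15 other proton pump subunits, 14 were measured, of which 6 (42.9%) ranged at least 1.5-fold and 4 (28.6%) at least 2-fold, both below the shares of all measured rows. ATP6V1C1 (184 CPM) and ATP6V1E1 (157 CPM) were highest, and ATP6V0D2 was lowest with at most 3 fragments. Past 2-fold were ATP6V0A1 (2.34-fold), ATP6V0C (2.69-fold, with 72.1% of its exonic bases shared), ATP6V0A4 (5.83-fold) and ATP6V1B1, which had no fragment in S21 and 7.17 CPM in S19. The 6 genes of enzyme sorting ranged at least 1.5-fold, as did 78.5% of all measured rows: SORT1 (403 CPM) and IGF2R (242 CPM), receptors that carry enzymes to the lysosome, were highest, NAGPA (13.5 CPM) was lowest, and IGF2R alone passed 2-fold (2.33-fold; 47.9% of all measured rows did).

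Of 17 genes for nutrient sensing at the lysosome, 12 (70.6%) ranged at least 1.5-fold, beside 78.5% of all measured rows, and 4 (23.5%) at least 2-fold, beside 47.9%. These 4 were RRAGD (4.19-fold on 6 to 30 fragments), RRAGB (2.92-fold), FLCN (2.48-fold) and FNIP1 (2.13-fold). MTOR (166 CPM) and TSC2 (94.1 CPM) were highest and RRAGD (1.14 CPM) lowest. Of 15 autophagy genes, 10 (66.7%) ranged at least 1.5-fold and 5 (33.3%) at least 2-fold, again below 78.5% and 47.9%. The share at 2-fold was not below the 29.5% of rows with a median of at least 10 CPM. The 5 were ULK1, the kinase that starts autophagy, from 39.5 CPM in S22 to 185 in S19 (4.68-fold), GABARAPL1 (4.41-fold), GABARAP (4.37-fold), WIPI1 (3.91-fold) and OPTN (2.93-fold). TAX1BP1 (254 CPM) and NBR1 (160 CPM), cargo receptors like SQSTM1, were highest and GABARAP lowest (1.41 CPM, with 55.7% of its exonic bases shared).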

How the data were processed

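RNA of 12 HCC1954 cultures was sequenced from libraries made with a directional kit, per the labels' protocols. Per the file headers, the authors made the deposited counts with featureCounts 1.4.6-p2 in paired-end mode on GENCODE 25 exons summed by gene name, with no strand, multi-overlap or multi-mapping option set. The command names 24 alignment files and the table holds 12. Per the submitters' processing notes, Trim Galore 0.4.5 and STAR 2.4 were used on GRCh38. The exonic length of each row is as deposited. The table is named for the line and its columns match no sample, so all 12 were used as HCC1954 libraries without treatment, and 0 columns were left out. The closest pair of libraries, S15 and S19, differed by 11.9 times the sampling noise (chi-square over degrees of freedom).

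CPM were computed on total counts and FPKM from CPM and length, with Python 3.11.15, numpy 2.4.6 and scipy 1.17.1. Genes with a median CPM of at least 1 were measured. TMM factors (edgeR 4.0.16) and DESeq2 1.42.0 size factors were alternatives, and no model was fitted. Correlations used log2(CPM + 1). The fold ranges, correlations and shared exonic bases were tested on simulated data. The 35 genes, the lists and the rule for naming genes (all members, and of other lists the 2 highest, the lowest and those past 2-fold) were chosen with earlier results of these data known. Some genes of the other lists are counted there but not reported here by name.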

Additional observations from a re-analysis of the deposited data

How the results depend on the processing

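No paired analysis was possible because neither treatments nor replicate numbers can be read from the columns. The number of genes ranging at least 1.5-fold, 23, was 21 to 23 with each library left out in turn, beside 76.0% to 78.0% of measured rows. Under all settings tried it was 19 to 25, beside 60.2% to 81.6% of rows. The number at 2-fold, 15, was 13 to 15 with each library left out, beside 45.1% to 47.5% of measured rows. Leaving out S21 to S24, chosen after seeing the data, gave 7 genes at 2-fold, beside 31.7% of measured rows. TMM or DESeq2 scaling gave 11 each of the 35, beside 48.6% and 48.3%. The second highest over the second lowest library gave 10, beside 32.2%. Pairs with r of at least 0.8, 83 of 595, fell to 51 with TMM and 52 with DESeq2 scaling, beside 3.55% and 3.45% of all pairs. Both settings were chosen after seeing the data. The cause was not tested. For single genes, TMM scaling moved 6 of 35 across the 1.5-fold limit, 4 of them upwards, and DESeq2 scaling 5. Of the 12 tested pairs, 3 passed under each of TMM scaling, DESeq2 scaling and the 8 libraries, in place of 4. Depth limits TFEB most, with 6 fragments in S13.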

Other observations

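Whether the 12 libraries fall into separate groups was examined over the 1000 most variable measured rows, by average linkage on 1 minus Pearson's r. The mean silhouette was 0.39 for 2 clusters, 0.39 for 3 and 0.43 for 4, under the limit of 0.5 above which no correlation over all 12 would have been given. At 2 clusters, S21 to S24 separated from the other 8. At 4 clusters, the groups were S21 with S22, S23 with S24, S15 with S16, S19 and S20, and S13 with S14, S17 and S18. The ASAH1 level was 119 and 124 CPM in S21 and S22, 190 and 195 in S23 and S24, 195, 181, 200 and 193 in S15, S16, S19 and S20, and 127, 123, 137 and 137 in S13, S14, S17 and S18. ASAH1 was chosen after its values were seen. These clusters come from the data, carry no treatment and were not compared by a test.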
